A study of Homo sapiens with 7 samples.

Results

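The binding sites of the transcription factor RUNX2 were compared between KARPAS-45 and PER-117, a pair of human lines from T-cell acute lymphoblastic leukemia (T-ALL). The members are the 63938 RUNX2 peaks that the authors called on chromosomes 1 to 22 and X, 42911 in KARPAS-45 against 21027 in PER-117, after several summits within the same interval were joined. They are part of 180466 peaks and regions in the series, whose remainder are H3K27ac regions, an acetylated histone that marks active regulatory DNA, in the same lines. The series addresses how immature T-ALL and T-ALL with a KMT2A rearrangement depend on RUNX2, and it holds 7 samples, of which 3 are inputs. KARPAS-45 is known for a rearrangement of KMT2A, a histone methyltransferase gene. It was grown with 20% fetal bovine serum and PER-117 with 10%. Both lines were untreated and received the same 10 min fixation in 1.1% formaldehyde and 10 ug of the RUNX2 antibody D1H7. Each line is 1 culture with 1 RUNX2 library, so no difference has a replicate check, no test could be run, and the differences are those of a pair of libraries. Read depth is unknown from these files, so a gene without a peak is one where none was called.

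RUNX2 is 1 of the 3 Runt-domain factors. These proteins bind DNA as a pair with CBFB, recognise short core sequences such as TGTGGT, and activate or repress genes together with partners such as ETS factors. RUNX2 is best known for driving bone formation. In the T lineage its relatives RUNX1 and RUNX3 shape progenitors, the choice between CD4 and CD8 cells, and thymocyte maturation. As a check of the labels, 15 genes that mark T-ALL were set beside 21 markers of B, myeloid, erythroid, NK and bone cells. H3K27ac lay at a gene end of 15 T-ALL markers in KARPAS-45 against 12 in PER-117, and of 3 and 6 of the other markers. RUNX2 lay at 12 and 9 of the T-ALL markers and at 2 and 0 of the others, the 2 being bone genes. For comparison, 48.3% of all protein-coding genes had a RUNX2 peak at an end in KARPAS-45, against 32.5% for PER-117. The matching H3K27ac shares were 61% against 55.5%.

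Sequences are shown for promoters with strong peaks among the genes named by the rule given under processing. They are examples, and the shares over each whole class follow below. The stretches of 150 bases below come from RefSeq (GRCh38.p14, the hg38 build of the files), lie upstream of the annotated start, and are written 5′ to 3′ on the strand of the gene. Capitals mark the RUNX letters TGTGGT or ACCACA and the GC box letters GGGCGG or CCGCCC, a common promoter element. Variants of the RUNX letters, such as TGCGGT or ACCGCA, were not searched or marked. A stretch without the RUNX letters can therefore hold such a variant, as those of PSIP1, EIF1B and PON1 do. Peaks are given with fold enrichment over background, the authors' value for that peak, which ranks peaks within a list and is not an amount of binding to compare between the lines.

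Bound in both lines were PSIP1 (chr9:15511071-15511220, minus strand), the chromatin tether of KMT2A complexes, with 59.9 in KARPAS-45 against 51.7 in PER-117, GABPB1 (chr15:50355199-50355348, minus strand), a subunit of an ETS-family complex, with 32.9 and 36.8, and EIF1B (chr3:40309507-40309656, plus strand), a translation factor, with 31.8 and 33.1. None of the 3 promoters holds TGTGGT or ACCACA anywhere from 250 bases before to 50 bases after the start.
PSIP1: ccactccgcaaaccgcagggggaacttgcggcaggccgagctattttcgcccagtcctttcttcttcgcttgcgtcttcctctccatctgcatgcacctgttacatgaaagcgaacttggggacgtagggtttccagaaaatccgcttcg
GABPB1: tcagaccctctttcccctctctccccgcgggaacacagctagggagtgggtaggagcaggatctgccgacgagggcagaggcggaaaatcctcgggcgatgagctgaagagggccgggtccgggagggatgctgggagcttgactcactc
EIF1B: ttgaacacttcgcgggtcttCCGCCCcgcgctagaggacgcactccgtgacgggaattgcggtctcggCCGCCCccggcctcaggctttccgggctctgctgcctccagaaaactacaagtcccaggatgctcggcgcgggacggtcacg

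Bound in KARPAS-45 only were PON1 (chr7:95324566-95324715, minus strand), which encodes paraoxonase, with 51.3, AP2A2 (chr11:925720-925869, plus strand), an endocytic adaptor subunit, with 50.8, and GNA11 (chr19:3094212-3094361, plus strand), a G-protein alpha subunit, with 39.2. All 3 stretches hold GC boxes, 5 of them in GNA11, and none holds TGTGGT or ACCACA. The summits at AP2A2 and GNA11 lie 39 and 41 bases after the start, just past the end of the stretch shown.
PON1: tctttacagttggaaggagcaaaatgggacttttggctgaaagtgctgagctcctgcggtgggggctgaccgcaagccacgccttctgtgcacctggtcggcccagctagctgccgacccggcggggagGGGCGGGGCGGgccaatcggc
AP2A2: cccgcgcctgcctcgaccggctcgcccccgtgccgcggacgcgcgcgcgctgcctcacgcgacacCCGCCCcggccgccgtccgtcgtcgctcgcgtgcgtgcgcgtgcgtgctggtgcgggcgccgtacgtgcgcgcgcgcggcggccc
GNA11: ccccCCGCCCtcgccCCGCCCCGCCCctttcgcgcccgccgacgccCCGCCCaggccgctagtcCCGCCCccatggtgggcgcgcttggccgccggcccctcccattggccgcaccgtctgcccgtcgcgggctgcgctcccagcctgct

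Bound in PER-117 only were PRSS57 (chr19:695462-695611, minus strand), a neutrophil serine protease, with 34.6, and CD55 (chr1:207321479-207321628, plus strand), a complement regulator of the cell surface, with 23.03. Each holds 1 copy of the RUNX letters, close to the middle of the stretch, where the summit lies.
PRSS57: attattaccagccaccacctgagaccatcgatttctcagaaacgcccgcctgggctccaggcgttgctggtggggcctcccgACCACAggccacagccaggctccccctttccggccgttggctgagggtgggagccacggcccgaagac
CD55: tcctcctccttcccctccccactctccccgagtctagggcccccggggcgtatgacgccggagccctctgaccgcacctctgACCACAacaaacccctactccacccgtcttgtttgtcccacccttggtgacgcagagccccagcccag

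Over all 15812 promoters with a sequence, the classes differed in letters and in base composition. A promoter counted as bound in both lines when the summits of both lines fell in the window from 250 bases before to 50 after the start (1797 promoters). It counted as KARPAS-45 only with a summit of the 21027 strongest KARPAS-45 peaks in the window and no PER-117 peak touching the window (890). PER-117 only required a PER-117 summit in the window and no peak of the full KARPAS-45 list touching it (222). These classes concern the window alone and not the wider gene ends used further below. The RUNX letters were present in 17.3% of promoters bound in both lines (Wilson 95% interval 15.6 to 19.1, as are the intervals that follow, for counting error only). They were in 14.9% (10.8 to 20.1) of those bound in PER-117 only and in 9.66% (7.89 to 11.8) of those bound in KARPAS-45 only, against 10.8% of all promoters. The ETS letters GGAAGT followed the same order, with 40.6%, 35.1% and 24.2% against 24.8% of all promoters. The GC box ran the other way, in 87.3% (85.0 to 89.3) of KARPAS-45-only promoters, 67.8% of those bound in both lines and 53.2% of PER-117-only promoters, against 58.5% of all. All letters were searched on both strands. The RUNX shares count TGTGGT alone. Variants such as TGCGGT, which holds a CpG pair, were not counted, and the order of the classes with them was not tested. The E-box letters CAGNTG and the AP-1 letters TGANTCA were less frequent in each bound class than the 51.4% and 7.63% of promoters without a RUNX2 peak.

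**Figure D1:**
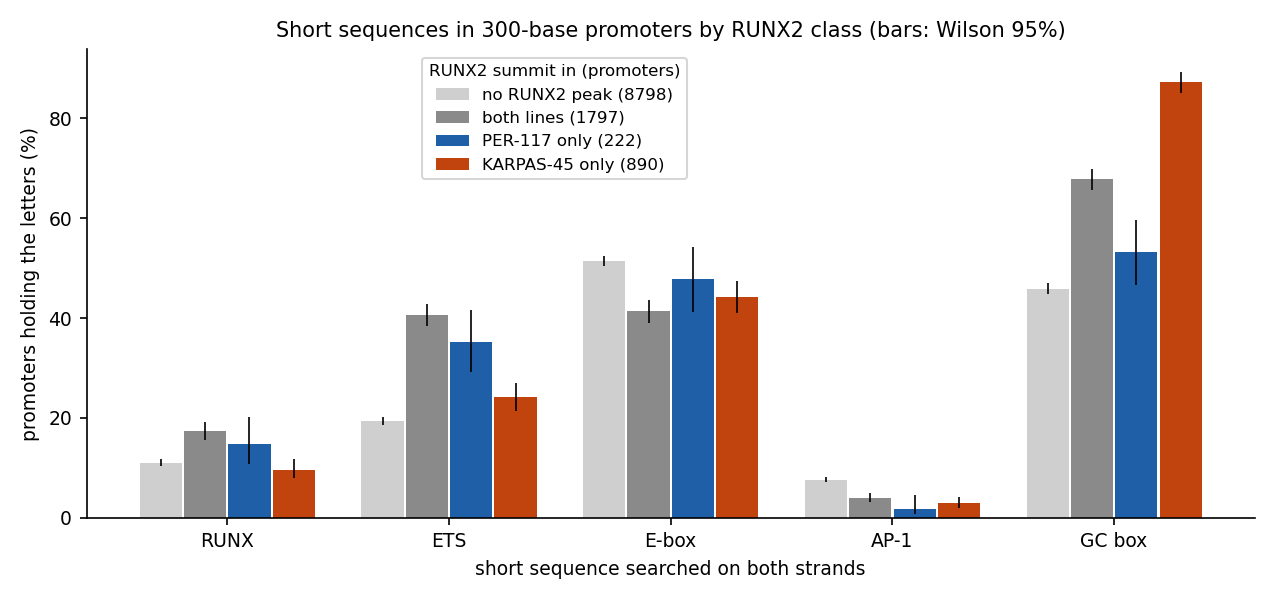
Share of promoters (vertical axis, percent) holding each short sequence on either strand, by RUNX2 class, with the number of promoters in the legend and Wilson 95% intervals as bars. The GC box share is highest in KARPAS-45-only promoters (87.3%), and the RUNX and ETS shares are highest in promoters bound in both lines (17.3% and 40.6%).

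Base composition moved with the classes. Median GC content was 72.0% in KARPAS-45-only promoters, 63.0% in those bound in both lines, 62.2% in PER-117-only promoters and 59.0% without a peak. The median number of CpG pairs was 35, 26, 21 and 12. Among promoters of 65% to 75% GC, the RUNX letters were in 13.6% of those bound in both lines, 6.78% (4.73 to 9.62) of KARPAS-45-only and 6.71% of promoters without a peak, and the GC box was in 83.2%, 92.3% and 82.9%. Below 55% GC the order of the RUNX letters turned. They were in 40.8% (28.2 to 54.8) of only 49 KARPAS-45-only promoters and in 30.6% (24.8 to 37.2) of 209 bound in both lines. These intervals overlap. Of promoters without a peak below 55% GC, 15.7% (14.6 to 17.0) held the RUNX letters, under the KARPAS-45-only interval. At 55% to 65% GC the shares were 13.5% (8.74 to 20.4) of KARPAS-45-only promoters and 11.2% (10.0 to 12.5) without a peak, with overlapping intervals. From 75% GC upward they were 6.78% (4.43 to 10.2) and 2.52% (1.71 to 3.69). The RUNX letters were also tied to peak height: among promoters bound in both lines they were in 35.6% of the strongest 25% and in 7.56% of the weakest 25%. In KARPAS-45-only promoters these shares were 14.3% and 7.17%, and in PER-117-only promoters 23.2% and 10.7%.

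Where the RUNX letters were present, their distance to the summit was measured. In promoters bound in both lines, 52.1% of the nearest RUNX letters were within 30 bp of the KARPAS-45 summit and 48.9% within 30 bp of the PER-117 summit. The share was 54.5% (37.99 to 70.2) of 33 PER-117-only promoters and 40.7% (30.9 to 51.3) of 86 KARPAS-45-only promoters. For the ETS letters the shares were 32.5% and 28.9% in promoters bound in both lines and 23.1% (15.1 to 33.6) in PER-117-only ones. In KARPAS-45-only promoters the ETS share was 33.0% (27.1 to 39.6), an interval that overlaps that of the RUNX letters. The share that the window length alone would give was not computed. GC boxes in KARPAS-45-only promoters lay within 30 bp of the summit in 48.0% of 777 cases, with a median distance of 31.5 bp. In promoters bound in both lines the share was 38.4% for KARPAS-45 summits and 29.3% for PER-117 summits. A promoter with many GC boxes has a nearer one by number alone, and the part of base composition in these distances was not tested.

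**Figure D2:**
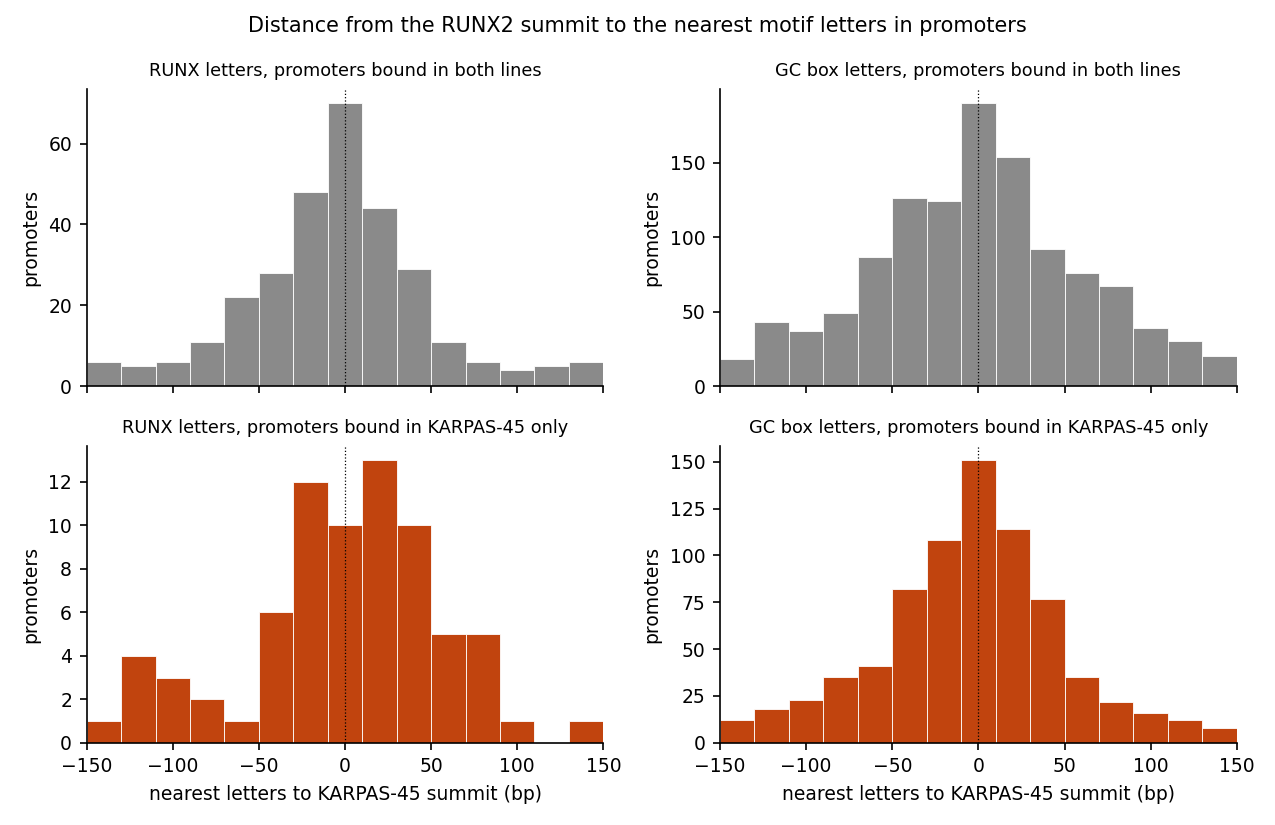
Distance in bp from the KARPAS-45 summit to the nearest RUNX letters (left) or GC box letters (right), for promoters bound in both lines (top) and in KARPAS-45 only (bottom); the vertical axis counts promoters. The nearest RUNX letters lay within 30 bp in 52.1% of promoters bound in both lines and 40.7% of KARPAS-45-only ones, with overlapping intervals. For GC boxes the shares were 38.4% and 48.0%. The shares that window length or number of boxes alone would give were not computed.

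Across the genome, the rate of sharing was highest at gene ends. A peak was shared when it overlapped a peak of the other line by 1 bp or more. Because the KARPAS-45 list is the longer, it was also cut to its 21027 strongest peaks (fold enrichment 6.43 or more), called the equal-length list. In it, 44.0% of the peaks (43.4 to 44.7) were shared with PER-117, and in the remainder 18.9%. Conversely, 63.6% of the PER-117 peaks were shared with the full KARPAS-45 list and 45.0% with the equal-length list. At gene ends, within 1 kb of either end of a protein-coding gene, 64.2% of the equal-length KARPAS-45 summits were in shared peaks, against 38.1% inside gene bodies and 38.3% in distal space outside genes. In PER-117 these shares were 79.3%, 58.0% and 56.2%.

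The PER-117 list held a larger part at gene ends, 29.2% against 22.5% of the equal-length KARPAS-45 list, and KARPAS-45 a larger part in bodies, 45.2% against 40.7%. Specific peaks numbered 1697 at ends, 5881 in bodies and 4189 in distal space in the equal-length KARPAS-45 list. In PER-117 they numbered 1272, 3594 and 2778. Among 12438 pairs of overlapping peaks with 1 partner each, the summits were a median of 31 bp apart and 83.2% lay within 100 bp. Peaks had median widths of 285 bp in KARPAS-45 and 322 bp in PER-117, so overlap alone brings summits close. The distance that overlap alone would give was not computed. Across these pairs, which share their genomic sites, the fold enrichments had a Spearman rho of 0.470.

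**Figure D3:**
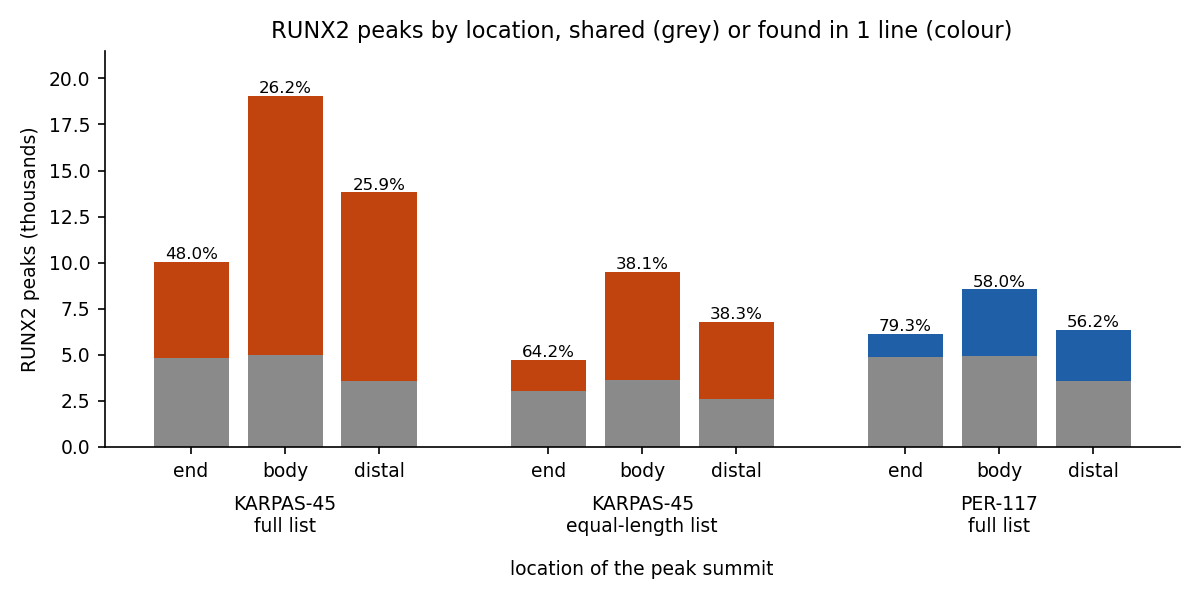
RUNX2 peaks (vertical axis, number of peaks in units of 1000) at gene ends, in gene bodies and in distal space for the full and equal-length KARPAS-45 lists and the PER-117 list; grey is shared with the other line, colour is not, and the label gives the percent shared. Gene ends have the highest shared part in each list (48.0%, 64.2% and 79.3%).

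The full KARPAS-45 list marked 48.3% of 19974 protein-coding genes at an end, the equal-length list 27.6% and the PER-117 list 32.5%. The count of genes bound at an end in a single line depended on the length of the lists. With the full lists, 3829 genes (19.2%) were bound in KARPAS-45 only and 670 (3.35%) in PER-117 only, and with equal-length lists 1524 (7.63%) and 2507 (12.6%). The 55 functional lists, 3304 genes together, showed the same turn. KARPAS-45 had more bound members in 51 lists and PER-117 in 2 with the full lists, while KARPAS-45 had more in 9 and PER-117 in 39 with equal-length lists. The text below therefore uses specific genes by a strict rule. A KARPAS-45-specific gene has an end peak in the equal-length list and no PER-117 end peak (1524 genes, 7.63%). A PER-117-specific gene has an end peak and none in the full KARPAS-45 list (670 genes, 3.35%). The second rule is the harder to meet, so the counts are read against their own background and not against each other. Genes bound in both full lists made up 29.2%. With the 5000 strongest peaks of each line, where both rules use lists of equal length, specific genes numbered 570 in KARPAS-45 against 797 in PER-117. The order over all genes thus turned at 5000 peaks as well, and turns of single lists below are to be read beside it. The IGF receptor and PI3K list turned the opposite way, from -1 to 1 in KARPAS-45-specific minus PER-117-specific genes.

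Gene ends held 14.4% of the KARPAS-45-specific peaks of the equal-length list and 16.6% of the PER-117-specific peaks. Among genes with a specific end and a known strand, the peak lay at the 5′ end for 84.7% of 1218 KARPAS-45-specific genes and 82.4% of 550 PER-117-specific genes, and for 94.2% (KARPAS-45) and 91.5% (PER-117) of 4904 bound in both. H3K27ac lay at a gene end of 61% of all genes in KARPAS-45 against 55.5% in PER-117. Of KARPAS-45-specific genes, 92.6% were acetylated at an end in KARPAS-45 against 71.6% in PER-117. Of PER-117-specific genes, 94.9% were acetylated in PER-117 against 71.8% in KARPAS-45. Most specific ends were thus acetylated in the line without the RUNX2 peak as well.

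**Figure D4:**
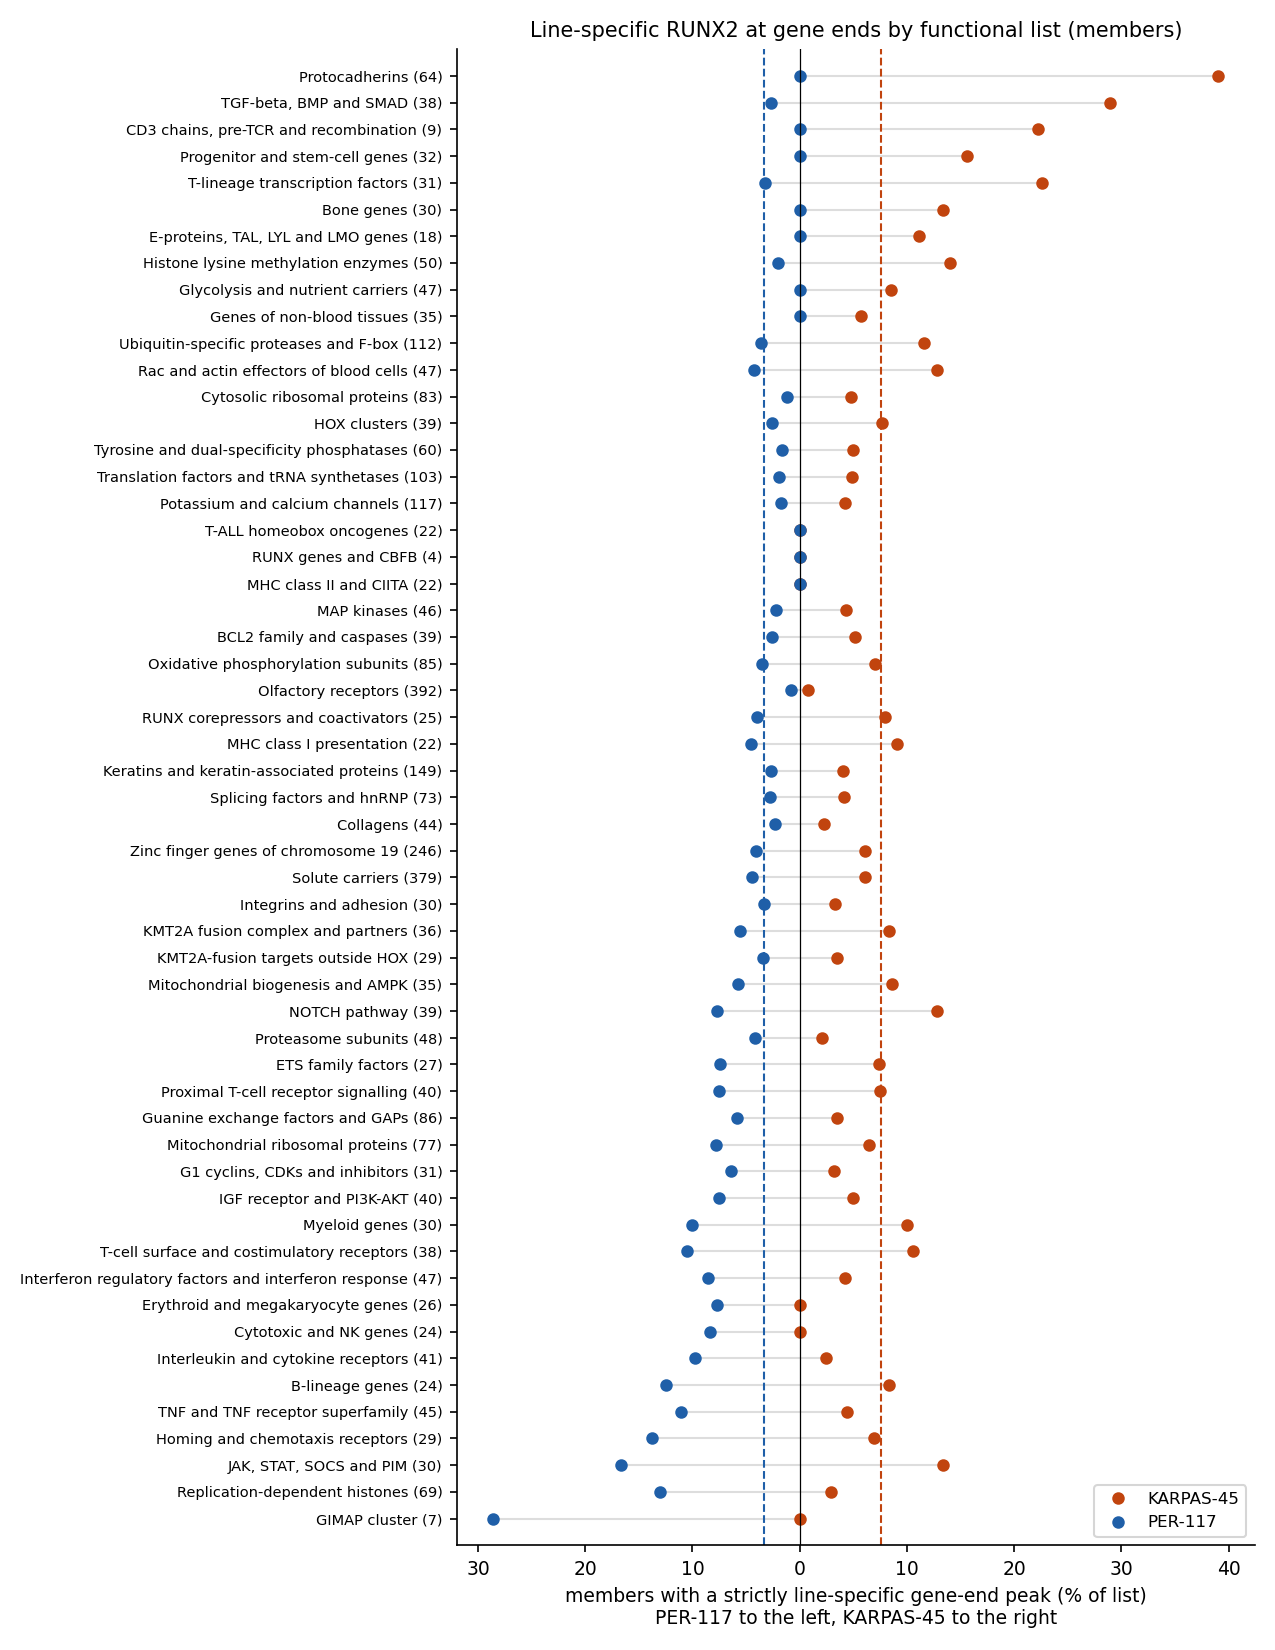
Percent of each list's members (number in brackets) with a KARPAS-45-specific (right) or PER-117-specific (left) RUNX2 peak at a gene end, sorted by the difference of the shares after division by their background. Dashed lines mark the shares over all genes, 7.63% and 3.35%; TGF-beta genes lie far above the KARPAS-45 line, and histone, cytokine receptor and GIMAP genes above the PER-117 line.

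TGF-beta, BMP and SMAD genes had the largest share of KARPAS-45-specific members of the 55 lists after the protocadherins, whose members share peaks. TGF-beta and BMP are growth-restraining ligands that signal through paired receptor kinases to SMAD factors. Of 38 members, 11 (28.9%) were KARPAS-45-specific at an end, 1 was PER-117-specific and 4 were bound in both, and the 11 genes had 11 distinct peaks. Among the receptors, ACVR1B, an activin receptor, had a peak of 11.5 and BMPR2, a BMP receptor, 10.8, each in KARPAS-45 only. TGFBR2, the ligand-binding TGF-beta receptor, was bound at an end only in PER-117, with 3.02, near the bottom of that list (rank 20393). The repressors of SMAD signalling SKI and SKIL had 35.2 and 12.4 in KARPAS-45 only. SKI (chr1:2228319-2310213) ranked 666 in KARPAS-45, and inside it lay 12 KARPAS-45 peaks and 5 of PER-117. In the bodies of the list's genes, 34 specific peaks were found in KARPAS-45 against 10 in PER-117, a ratio of 3.4 against 1.64 over all genes. In distal space the order was the other way, 6 and 9, a ratio of 0.667 against 1.60 over all genes (3131 and 1960). The lists below are read against these ratios of 1.64 in bodies and 1.60 in distal space. Gene-end H3K27ac was present at 29 members in KARPAS-45 against 22 in PER-117. The promoters of the specific members were rich in GC, with a median of 78.3% over 9 genes, against 70.2% for the list and 70.0% for all KARPAS-45-specific genes, and its part in the count was not tested.

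T-lineage transcription factors also had a high KARPAS-45-specific share at ends. Of 31 members, 7 (22.6%) were KARPAS-45-specific, 1 PER-117-specific and 12 bound in both. BACH2, a repressor that keeps lymphocytes from effector fates, had 15.9 in KARPAS-45 and 6 specific body peaks there against 0 in PER-117. THEMIS, needed for thymocyte selection, had 13.5 and 5 specific body peaks against 0. The zinc finger factors ZBTB7A and MAZ had 13.9 and 11.2. BACH2 and THEMIS were acetylated at an end in KARPAS-45 only, and ZBTB7A and MAZ in both lines. On the PER-117 side, ZBTB7B, the factor of the CD4 fate, had an end peak of 6.19. ZBTB16, the factor of innate-like T cells, had the largest PER-117 body cluster of the list, with 12 specific peaks against 2. Over the whole list, specific body peaks numbered 47 in KARPAS-45 against 34 in PER-117, a ratio of 1.38, below the 1.64 over all genes.

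Surface receptors of T cells had specific members on both sides. Of 38 members, 4 (10.5%) were KARPAS-45-specific, 4 (10.5%) PER-117-specific and 9 bound in both. The share lies nearer to its background on the KARPAS-45 side (7.63%) than on the PER-117 side (3.35%). In KARPAS-45 these were CD8B, a chain of the CD8 coreceptor, with 20.2, CD6, a receptor that tunes T-cell activation, with 16.0, CD27, a TNF-family costimulator, with 8.69, and the inhibitory receptor PDCD1 with 6.57. In PER-117 they were the inhibitory receptor BTLA with 9.10, CD244 and SLAMF6 of the SLAM family with 7.39 and 7.14, and the costimulator ICOS with 5.06. H3K27ac at the ends followed: CD8B, CD6 and PDCD1 were acetylated in KARPAS-45 only, all 4 PER-117 genes in PER-117 only, and CD27 in both. Inside the genes, specific peaks numbered 23 in KARPAS-45, 7 of them in CD226, and 8 in PER-117. The ratio in bodies was 2.88 against 1.64 over all genes. Distal specific peaks numbered 19 and 6, a ratio of 3.17 against 1.60.

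Among the CD3 chains, the pre-TCR and the recombination genes, DNTT, the enzyme that adds random bases at receptor junctions, had 10.7 in KARPAS-45 and no PER-117 peak at an end or inside the gene. TRAT1, an adaptor that stabilises the receptor complex, had 7.73. They were the 2 KARPAS-45-specific members of 9, and 0 were PER-117-specific, a difference that was gone with the 5000 strongest peaks. Signalling genes below the receptor were mostly common: of 40, 23 were bound in both lines, with 45.8 and 19.3 at PTPN22, a phosphatase that dampens receptor signals. The kinase FYN and the adaptor NCK1 were KARPAS-45-specific with 7.5 and 8.72, and the kinase TEC and the ubiquitin ligase CBLB PER-117-specific with 6.22 and 3.92. Distal specific peaks of this list were fewer in KARPAS-45 (9) than in PER-117 (21), while body ones were about level (38 and 35). The ratios of 0.429 and 1.09 lie below the 1.60 and 1.64 over all genes.

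Progenitor genes had a high KARPAS-45-specific share at ends. Of 32, 5 (15.6%, against 7.63% of all genes) were KARPAS-45-specific, 0 PER-117-specific and 3 bound in both. In a list of 32, 0 is little different from the 3.35% of all genes on the PER-117 side. With equal-length lists, 5 were bound in KARPAS-45 only and 2 in PER-117 only. The stem cell receptor KIT had 16.1, the myeloid factor CEBPA 14.9, PRDM16, a factor of stem cell upkeep, 14.0, and the growth factor receptor IGF1R 12.2. KIT, CEBPA and PRDM16 were acetylated at an end in KARPAS-45 only, and IGF1R in both. The 4 specific promoters with a sequence had a median GC content of 77.0%. Specific body peaks of the list numbered 37 in KARPAS-45 against 15 in PER-117, a ratio of 2.47 against 1.64 over all genes. Of these, 11 and 0 lay in IGF1R, while MECOM, a stem cell and leukemia factor, had 6 in PER-117.

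Bone genes are the classic targets of RUNX2. At an end, 10 of 30 were bound in the full KARPAS-45 list, 6 in the equal-length list and 2 in PER-117, against 48.3%, 27.6% and 32.5% of all genes. The KARPAS-45-specific members numbered 4 (13.3%), with SPP1, which encodes osteopontin, at 19.8, and the osteoblast factor SP7 and the protease MMP9 at 8.01 each. SPP1 and MMP9 had no gene-end H3K27ac in either line. No member was PER-117-specific, which in a list of 30 is little different from the 3.35% of all genes.

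Genes of the KMT2A complex and its fusion partners were mostly bound in both lines, 25 of 36. KMT2A itself (chr11:118436492-118526832) was KARPAS-45-specific, with a peak of 33.6 (rank 767 in KARPAS-45, chr11:118435899-118436516) and no PER-117 peak at an end or inside the gene, while its end was acetylated in both lines. MLLT1, a fusion partner, was KARPAS-45-specific with 10.96. AFF3, another partner, was PER-117-specific with 6.88 and held 9 specific body peaks in PER-117 against 1 in KARPAS-45. Distal specific peaks of the list numbered 5 in KARPAS-45 against 15 in PER-117, a ratio of 0.333 against 1.60 over all genes. Of 29 fusion targets outside the HOX clusters, MEIS1 was KARPAS-45-specific with 6.62 and its relative MEIS2 PER-117-specific with 10.7. Each was acetylated only where RUNX2 was bound. The bodies of these targets held 45 specific peaks in KARPAS-45 against 17 in PER-117, a ratio of 2.65 against 1.64 over all genes. Of the KARPAS-45 peaks, 9 lay in SUPT3H, a coactivator subunit gene that neighbours RUNX2. The HOX clusters were nearly empty, with 4 of 39 genes bound in KARPAS-45 against 1 in PER-117, beside 48.3% and 32.5% of all genes. Of the 39, 3 (7.69%) were KARPAS-45-specific and 1 (2.56%) PER-117-specific, near the 7.63% and 3.35% over all genes.

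The wider group of histone lysine methylation enzymes, which includes KMT2A, had 7 KARPAS-45-specific members of 50 (14.0%), 1 PER-117-specific and 29 bound in both. After KMT2A came the demethylase KDM1B with 12.9, KMT2C with 10.3 and KMT5B with 9.98, all acetylated at an end in both lines. The median promoter GC content of the 7 was 74.7%. In bodies, 45 specific peaks stood against 15, a ratio of 3 against 1.64 over all genes, with 10 of the 45 in JARID2, a partner of the Polycomb complex. Ubiquitin-specific proteases and F-box genes had 13 KARPAS-45-specific members of 112 (11.6%), led by FBXW5 with 21.6, and 4 PER-117-specific ones. Their order turned when the 5000 strongest peaks of each line were used, where PER-117-specific genes were ahead by 1.

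In the NOTCH pathway, a main driver of T-ALL, ligands and modifiers split between the lines. The receptor NOTCH1 had an end peak of 10.0 in KARPAS-45 only, and its body held 7 KARPAS-45 and 4 PER-117 peaks. The ligands JAG1 and JAG2 had 7.61 each in KARPAS-45, and the ligand DLL4 had 11.6 in PER-117. Of the enzymes that put sugars on NOTCH, POFUT1 had 15.7 in KARPAS-45 and LFNG 12.7 in PER-117. Altogether 5 of 39 members (12.8%) were KARPAS-45-specific, 3 (7.69%) PER-117-specific and 14 bound in both. With the 5000 strongest peaks the order turned to 1 more on the PER-117 side. Of 18 E-protein, TAL and LMO genes, LMO1 (11.1) and the leukemia factor MYB (9.99) were KARPAS-45-specific and 0 were PER-117-specific. That order turned as well at 5000 peaks, by 1.

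On the PER-117 side stood receptors for cytokines and chemokines. Of 41 interleukin and cytokine receptors, 4 (9.76%) were PER-117-specific, 1 KARPAS-45-specific and 12 bound in both. They were the neighbouring IL18RAP and IL18R1, the chains of the interleukin 18 receptor, with 11.3 and 7.39, IL1R1 with 7.23 and IL17RB with 4.0. All 4 were acetylated at an end in PER-117 only. The KARPAS-45-specific member was the interferon receptor chain IFNGR2, with 7.79. It is specific only by the ends of its gene span, since PER-117 had a peak of 4.52 within 1 kb of its annotated promoter start. Bodies held 6 specific peaks in KARPAS-45 against 12 in PER-117, an order opposite to that over all genes (6017 and 3673, each peak counted once for every gene that holds it). Of 29 homing receptors, 4 (13.8%) were PER-117-specific, among them S1PR4 (4.54), CCR4 (4.19) and CCR2 (4.12), and CCR10 and CXCR1 KARPAS-45-specific with 7.73 and 6.43. The counts were equal with peaks of −log10 q of 10 or more. The 3 PER-117 values named lie in the lower part of that list, at ranks 14725 to 16443.

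TNF ligands and receptors gave 5 PER-117-specific members of 45 (11.1%) and 2 KARPAS-45-specific ones. The ligands LTA, FASLG and TNFSF14 had 7.63, 4.32 and 4.26 and the receptor TNFRSF1B 5.22 in PER-117. TNFRSF13B, a B-cell survival receptor, had 12.9 in KARPAS-45. Specific peaks of the list were fewer in KARPAS-45 both in bodies (9 and 16) and in distal space (11 and 18). The ratios were 0.56 and 0.61, against 1.64 and 1.60 over all genes. At 5000 peaks the counts at ends were equal. In the JAK, STAT, SOCS and PIM list both sides lay above their background, with 4 of 30 (13.3%) KARPAS-45-specific and 5 (16.7%) PER-117-specific. The kinase PIM3 had 19.6 in KARPAS-45. The cytokine OSM had 20.2 in PER-117 (rank 645), and STAT5B, JAK3 and STAT4 had 5.28, 4.45 and 4.38. STAT5B is specific only by the ends of its gene span. Within 1 kb of its annotated promoter start lay a KARPAS-45 peak of 5.49 and no PER-117 peak. The order of these counts turned with a gene-end window of 2.5 kb, to 1 more on the KARPAS-45 side, and the counts were equal with −log10 q of 10 or more. Interferon-response genes had 4 PER-117-specific members of 47, among them the antiviral proteins BST2 (9.45) and RIGI (5.86), against 2 in KARPAS-45, and 1 more on the KARPAS-45 side when only gene starts were counted. In the GIMAP cluster of lymphocyte GTPases, GIMAP5 (8.49) and GIMAP6 (4.96) of 7 were PER-117-specific, and 0 KARPAS-45-specific, with no difference at 5000 peaks.

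Replication-dependent histone genes were the larger of the 2 lists with more bound members in PER-117 even with the full lists, 45 of 69 against 38 in KARPAS-45. Of these, 36 were bound in both, 9 (13.0%) were PER-117-specific and 2 KARPAS-45-specific. Histone genes stand in pairs, and the 9 rested on 7 distinct peaks and the 2, H2AC15 and H2BC15, on 1 peak of 10.6. H2BC18 and H3C13 shared a PER-117 peak of 9.78 and were acetylated in PER-117 only. H2BC10 had 7.46 and H3C3 5.39, both acetylated in both lines. H3K27ac lay at 51 members in KARPAS-45 against 62 in PER-117. Promoters of the list had a median GC content of 43.2%, low beside 62.7% over all genes, and those of 8 PER-117-specific members 42.0%. Near-identical histone copies can share reads, so single genes of this list are uncertain.

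The protocadherins show how a shared end inflates a count. Of 64 genes, 25 (39.1%) were KARPAS-45-specific, but they rested on 4 distinct peaks. Most belong to the gamma cluster, whose genes share their 3′ end, with 1 peak of 13.6 (chr5:141513958-141514377) counted for PCDHGA1, PCDHGA10, PCDHGA11 and others. PCDHB3 had a peak of its own, 15.8, at its start. With starts only, the excess on the KARPAS-45 side was 3 genes.

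Housekeeping groups were mostly common. Of 83 cytosolic ribosomal proteins, 67 (80.7%) were bound in both lines, with 29.8 and 30.7 at RPS3A. Splicing factors had 52 of 73 (71.2%) in both, mitochondrial ribosomal proteins 48 of 77 (62.3%), translation factors 63 of 103 (61.2%), proteasome subunits 26 of 48 (54.2%) and oxidative phosphorylation subunits 45 of 85 (52.9%). All lie above the 29.2% over all genes, as do the groups' gene ends with H3K27ac (82 of 83 ribosomal protein genes in each line, against 61% and 55.5%). Cytosolic ribosomal protein genes had 4 KARPAS-45-specific members, such as RPLP0 with 8.54, and 1 PER-117-specific one. Mitochondrial ribosomal proteins had 5 (6.49%) and 6 (7.79%), the latter above the PER-117 background. The order of the cytosolic list turned to 7 more on the PER-117 side with peaks of −log10 q of 10 or more. Among regulators of mitochondria, TFAM, the packaging factor of mitochondrial DNA, had 43.2 and 27.2. The energy-sensing kinase STK11 was KARPAS-45-specific with 17.9. At the other extreme, 8 of 392 olfactory receptor genes were bound at an end in KARPAS-45 against 4 in PER-117. The shares over all genes were 48.3% and 32.5%.

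Groups of cell structure and survival lay between these extremes. Of 47 Rac and actin genes of blood cells, 26 were bound in both lines, 6 (12.8%) were KARPAS-45-specific and 2 PER-117-specific. TIAM1 and VAV2, which activate Rac, had 13.8 and 11.2 in KARPAS-45, and RHOH, a GTPase of blood cells, 6.40 in PER-117. Common members were RAC2, with 16.9 in KARPAS-45 against 24.5 in PER-117, and ARHGAP30, with 21.4 and 18.2. The bodies of this list held 35 specific peaks in KARPAS-45 against 38 in PER-117, a ratio of 0.921. Among BCL2 family and caspase genes, 21 of 39 were bound in both, with 18.9 and 45.8 at CFLAR, an inhibitor of death receptor signals. The bodies of these 39 genes held 19 and 7 specific peaks, a ratio of 2.71 against 1.64 over all genes. The 27 ETS factors had 2 specific members (7.41%) on each side. This share lies near the KARPAS-45 background (7.63%) and above the PER-117 one (3.35%). Inside these genes lay 13 KARPAS-45-specific and 20 PER-117-specific peaks, a ratio of 0.650 against 1.64 over all genes.

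RUNX1, RUNX2 and RUNX3 were bound at an end in both lines, and CBFB only in the weaker remainder of KARPAS-45. RUNX1 held 28 body peaks in KARPAS-45 against 13 in PER-117, and RUNX2 held 15 and 9. Line-specific in the full lists were 19 and 4 of these in RUNX1, and 9 and 2 in RUNX2. With the equal-length KARPAS-45 list the specific ones numbered 6 and 4 in RUNX1, and 2 and 2 in RUNX2. Over the list with RUNX3 and CBFB, specific body peaks then numbered 12 and 8, a ratio of 1.5 against 1.64 over all genes. Genes outside the blood lineage were rarely bound at ends, but some had body peaks in KARPAS-45. Of 35 genes of non-blood tissues, 4 were bound at an end in KARPAS-45 against 0 in PER-117, and their bodies held 10 specific peaks against 0, of which 6 lay in the neuronal gene RBFOX3. The bodies of 44 collagen genes held 30 against 8, with 9 in COL23A1, a ratio of 3.75 against 1.64 over all genes. Erythroid and megakaryocyte genes ran the other way in distal space, with 3 specific peaks in KARPAS-45 against 10 in PER-117. This ratio of 0.3 compares with 1.60 over all genes.

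The strongest KARPAS-45-specific ends over all genes were CLPTM1L (62.6), the zinc finger gene ZNF324B (55.1), PON1, AP2A2, GNA11, CEP112 (37.0), the actin regulator CARMIL1 (36.7), SKI, KMT2A and EXD2 (32.9). Of these 10, PON1 was acetylated at its ends in neither line. ZNF324B, CEP112, CARMIL1 and EXD2 were acetylated in KARPAS-45 only, and the other 5 in both. In PER-117 they were PRSS57, LOC107983989 (32.9), SPATA46 (30.3), the adhesion G-protein-coupled receptor ADGRG3 (29.6), SVIP (26.0), PRR33 (24.6), CD55, the neighbours C11orf21 and TSPAN32 (20.8 each), and OSM. PRSS57, SPATA46, SVIP and CD55 were acetylated at their ends in PER-117 only. LOC107983989 was acetylated in neither line, and the other 5 in both. PRSS57 also belongs to the myeloid list, where it and the antibody receptor genes FCGR3A (10.4) and FCER1G (8.46) were the 3 PER-117-specific members of 30. The 3 KARPAS-45-specific ones were CEBPA, the protease inhibitor gene CST3 (9.41) and the macrophage marker CD68 (7.32). Each side made up 10% of the list, against 7.63% of all genes for KARPAS-45 and 3.35% for PER-117.

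Gene bodies held the largest single-gene differences. Over all genes, 17.5% held at least 1 KARPAS-45-specific body peak of the equal-length list and 11.6% at least 1 PER-117-specific one. RPTOR, the scaffold of the growth kinase complex mTORC1, held 14 specific peaks in KARPAS-45 against 2, all 14 in KARPAS-45 H3K27ac and 6 in PER-117 H3K27ac. IGF1R, upstream in the same pathway, held 11 against 0, all acetylated in KARPAS-45 against 2 in PER-117, with a highest fold enrichment of 42.5. Both belong to the IGF receptor and PI3K list, whose bodies held 65 and 22 specific peaks, a ratio of 2.95. Counts in bodies were not adjusted for gene length, which is the same for both lines. GSE1, a corepressor subunit gene, held 14 against 3. In the full lists it held 79 and 27 body peaks, of which 55 and 3 were specific. DIP2C held 13 against 2, the lipid flippase gene ATP8A2 11 against 0 and ADAMTS17, a secreted protease, 10 against 0. In ATP8A2, 5 of the 11 lay in KARPAS-45 H3K27ac and 0 in that of PER-117.

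In PER-117 the leading body was that of PTPRD, a receptor phosphatase of the nervous system, with 18 specific peaks against 1, spread over 529 kb and 12 of them acetylated in PER-117. NBAS held 13 against 0 and NTM, a neural adhesion gene, 12 against 0, with 11 and 9 acetylated in PER-117 against 0 in KARPAS-45. ZBTB16 held 12 against 2, up to a fold enrichment of 30.1, with 11 acetylated in PER-117. PRR5L, which binds mTORC2, held 10 against 0. RXRA, the retinoid partner receptor, also held 10 against 0, of which 9 lay in PER-117 H3K27ac and 9 in that of KARPAS-45, more than in the other 5 bodies. RXRA carried a KARPAS-45 end peak of 18.0 and no PER-117 one.

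**Figure D5:**
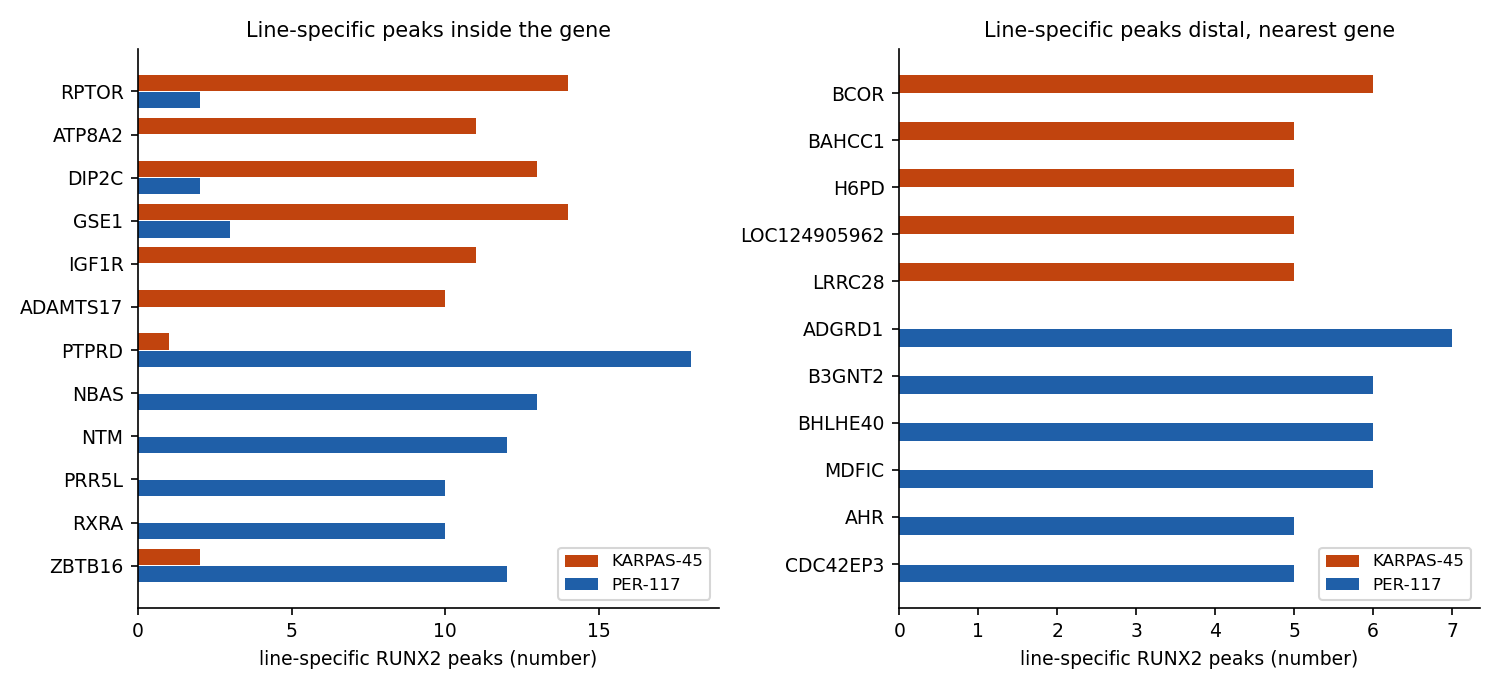
Number of line-specific RUNX2 peaks (horizontal axis) inside the 6 genes per line with the largest excess (left) and in distal space nearest to 5 KARPAS-45 and 6 PER-117 genes of large excess (right). RPTOR and GSE1 hold 14 KARPAS-45-specific body peaks each, and PTPRD holds 18 PER-117-specific ones.

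In distal space within 100 kb of a gene end, 11.9% of genes had at least 1 KARPAS-45-specific peak nearest to them and 7.39% a PER-117-specific one. BCOR, a transcriptional corepressor, had 6 in KARPAS-45 against 0, and BAHCC1, H6PD, LOC124905962 and LRRC28 had 5 each. Acetylation of these was uneven, from 2 of 6 at BCOR to 4 of 5 at LRRC28. In PER-117, ADGRD1 had 7 against 0, packed within 14.9 kb, and 6 of them were acetylated in PER-117. B3GNT2 and the stress-response factor BHLHE40 had 6 each, all acetylated in PER-117 and 1 each in KARPAS-45, and MDFIC 6, of which 2 were. The receptor AHR, a sensor of small molecules, had 5 and CDC42EP3 5. AHR had no RUNX2 peak at an end or inside the gene in either line.

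Outside gene ends, acetylation followed the line with the peak more closely than at ends. KARPAS-45-specific body peaks of the equal-length list were acetylated at 61.5% in KARPAS-45 against 18.8% in PER-117, and distal ones at 48.1% and 11.6%. PER-117-specific body peaks were acetylated at 72.6% in PER-117 against 34.4% in KARPAS-45, and distal ones at 69.7% and 20.6%. At ends the other line's shares were 63.1% for KARPAS-45-specific and 73.4% for PER-117-specific peaks. The KARPAS-45 H3K27ac list is the longer, with 63265 regions against 53263, which bears on the order of these shares between the lines.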

How the data were processed

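Chromatin immunoprecipitation with sequencing of RUNX2 was available as 1 peak list for each line, called per library. Per the submitters' processing notes, STAR 2.4.2a, MACS2 and the hg38 build were used; for the calling settings and the matching inputs, nothing is given in the sources used here. In the deposited files, each peak carries a score, a fold enrichment at the summit, and −log10 p and −log10 q values from the authors' peak caller. The authors' H3K27ac lists carry the same values, of which only the intervals were used. Rows with the same interval were joined, keeping the highest fold enrichment, and chromosomes 1 to 22 and X were kept.

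Gene spans and promoters came from RefSeq tables of GRCh38.p14 (19974 protein-coding genes, 15812 with a promoter). A peak touching a 1 kb window around either end of a gene counted for that gene, and a distal peak counted for the nearest end within 100 kb. A peak near several genes counts for each. Genes were named by rule: in lists whose specific share was at least 1.5 times the background or that far below it, up to 4 members per line by fold enrichment; up to 4 members bound in both lines where most members were; the 10 strongest specific ends per line; and the 6 genes per line with the largest excess of specific body or distal peaks. The gene with the most specific body peaks in a list was added after its values were seen, as were the body, distal and acetylation values of named genes. Genes and lists were chosen with earlier results of these data known. The scripts, in Python 3.11.15 with scipy 1.17.1, matplotlib 3.10.9, numpy 2.4.6 and pandas 2.3.3, were tested on simulated data. With 1 library per line no test was run, and intervals cover counting error only. A few of the genes so named are not reported here.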

Additional observations from a re-analysis of the deposited data

How the results depend on the processing

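For a list, the number of KARPAS-45-specific minus PER-117-specific genes at ends is given here. The 2 rules are unequal, so each value is to be read beside the counts over all genes. These were 1524 against 670 as reported, 1017 against 669 with −log10 q of 10 or more, 1734 against 696 with a 2.5 kb window, 1163 against 538 with starts only and, in the other order, 570 against 797 with the 5000 strongest peaks. Of the 37 lists with a difference and a specific share far from the background, the only ones recomputed, 28 kept its sign with peaks of −log10 q of 10 or more, 19 with the 5000 strongest peaks of each line, 33 with KARPAS-45 shortened by −log10 q, 31 with a gene-end window of 2.5 kb and 33 with gene starts only. The lists of TGF-beta, T-lineage factors, progenitor genes, histone methylation enzymes, bone genes, protocadherins, histones and cytokine receptors kept theirs in all 5, down to 2, 1, 2, 1, 1, 2, -1 and -1. At 5000 peaks the difference fell to 0 in 8 lists, among them CD3 and recombination genes, GIMAP and TNF, and with −log10 q of 10 or more in 6, among them homing receptors and JAK and STAT genes. It was 0 in 3, 4 and 2 lists with shortening by −log10 q, the 2.5 kb window and starts only. The signs turned as follows. With −log10 q of 10 or more, cytosolic ribosomal proteins gave -7, and keratins and MAP kinases -1. With the 5000 strongest peaks, E-proteins, NOTCH, mitochondrial biogenesis, glycolysis and ubiquitin-specific proteases with F-box genes gave -1, the KMT2A complex -2, MAP kinases -4, ribosomal proteins -5, splicing factors -9, and PI3K 1. Shortening by −log10 q gave 1 for proteasome subunits. The 2.5 kb window gave 1 for JAK and STAT genes and -1 for mitochondrial biogenesis. Starts only gave -1 for the KMT2A complex and 1 for interferon genes. The cause of these turns was not tested.

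The shared part of the full KARPAS-45 list, the equal-length list and PER-117 became 29.6%, 42.0% (41.96) and 62.9% with −log10 q of 10 or more. It became 29.9%, 43.2% and 61.1% when 50% of the shorter peak had to overlap, 25.2%, 37.6% and 51.4% with summits within 100 bp, and 36.3%, 46.8% and 70.01% with a margin of 1 kb. The 5000 strongest peaks gave 37.98% and 38.02% for the lines, with no separate full list, and shortening by −log10 q gave 45.1% for KARPAS-45. Gene ends made up 23.4% of the KARPAS-45 list shortened by −log10 q, 18.9% (PER-117 22.48%) of the 5000 strongest, 21.2% (27.3%) with −log10 q of 10 or more and 28.7% (36.5%) with a 2.5 kb window, so PER-117 stayed ahead in these 4. The 5000 strongest left 628 genes bound in both lines, 570 KARPAS-45-specific ones, 1570 KARPAS-45 and 1332 PER-117 body peaks, and 798 and 816 distal ones, so the order of the lines turned for specific ends and distal peaks. With −log10 q of 10 or more these were 2767 genes in both, 2993 and 1753 body peaks, and 1584 and 1007 distal ones. The longer letters TGTGGTT were in 8.35% of promoters bound in both lines, 5.41% of PER-117-only and 2.70% of KARPAS-45-only ones, the same order. Fewer peaks enter the stricter settings by construction. No paired analysis was possible because each line has 1 library. Without replicates or read depth, a missing peak cannot be told apart from a shallow library.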

Other observations

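Specific peaks were uneven along the chromosomes, which no comparison above uses; the windows below were chosen after their values were seen. Among windows of 2 Mb, the largest KARPAS-45 excess lay on chr6:14000001-16000000, with 54 specific peaks of the equal-length list against 4 of PER-117, of which 11 fell in JARID2, a partner of the Polycomb complex. The first 2 Mb of chromosome 2 held 35 against 1, with 6 each in SNTG2 and MYT1L, a neuronal factor gene. On chr15:98000001-100000000 there were 36 against 3, of which 11 fell in IGF1R. On chr1:2000001-4000000 there were 35 against 4, including 8 in the kinase gene PRKCZ, 4 in PRDM16 and 3 in SKI, so 2 of the KARPAS-45-specific genes named above lie in the same window.

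For PER-117 the largest excess lay on chr14:106000001-108000000, with 34 specific peaks against 3, all 34 inside IGH, the immunoglobulin heavy chain locus. On chr7:114000001-116000000 there were 29 against 0, with 10 in FOXP2, a forkhead factor gene, and 4 in MDFIC. On chr9:136000001-138000000 both lines had many, 42 against 20 of KARPAS-45, with 5 of the 42 in EXD3, and NOTCH1 lies in this window. On chr2:12000001-14000000 there were 21 against 0, of which 16 fell in the long non-coding gene MIR3681HG. On chr3:4000001-6000000 there were 22 against 1, of which 9 fell in the calcium channel gene ITPR1. By chromosome, the ratio of equal-length KARPAS-45 peaks to PER-117 peaks ran from 0.743 on chromosome 19 to 1.44 on chromosomes 18 and X, with 1.32 on chromosome 6 and 0.830 on chromosome 7. DNA copy number of the lines was not analysed here, and its part in these values was not tested. Within 5 Mb of a chromosome end lay 14.97% of the KARPAS-45-specific peaks (14.3 to 15.6), 13.8% of its shared peaks, 13.6% of the PER-117-specific peaks and 13.6% of genes.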
